A study of Mus musculus with 2 samples.

Results

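The aryl hydrocarbon receptor and 7 genes that work with it or answer to it were followed in the proximal intestine of mice lacking Cd36. The 8 genes were the receptor Ahr, its dimer partner Arnt, its repressor Ahrr, and the target genes Cyp1a1, Cyp1a2, Cyp1b1, Tiparp and Aldh3a1. They were taken as all probe sets annotated to exactly 1 of these symbols, which gave 17 probe sets for 8 of 18194 genes on the array. The set was chosen by the measured CD36KO minus WT difference of Cyp1a1 in these same arrays, already known to be strongly negative, and the question was whether the other targets followed it. All values below come from that contrast and are therefore given as a description, with no test.

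The CD36KO group was 1 array of RNA pooled from 3 mice with a germline deletion of Cd36, and the WT group was 1 array of RNA pooled from 3 wild-type mice. Both groups were C57BL/6 animals given chow with no other treatment named, and the RNA came from the whole wall of the upper part of the gut, so epithelium, stroma, muscle and immune cells were measured together. The labels give neither age nor sex. With 1 pool per genotype the spread between animals and between arrays is unknown, and the precision of all values is limited by there being only 2 arrays. In such whole-tissue RNA, fewer cells of a type and less RNA per cell cannot be told apart.

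The aryl hydrocarbon receptor is a transcription factor of the bHLH-PAS family that waits in the cytosol with the chaperone HSP90 until it binds a ligand, such as a dioxin, a plant indole or a tryptophan metabolite made by bacteria. It then enters the nucleus, pairs with ARNT and binds DNA at a short motif whose core is GCGTG. Cyp1a1 and other cytochromes P450 that oxidize the ligand are the classical targets, and the repressor AHRR and the ADP-ribosyltransferase TIPARP are induced as brakes on the receptor. In the gut the pathway is active in epithelium exposed to food and microbial products and in lymphocytes of the mucosa. Cd36 itself has been described as a target of the receptor in mouse liver.

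RefSeq windows before the start of transcription (GRCm38.p6) were matched for 6 of the 8 genes, and 4 are shown because their genes differed most in behaviour: Cyp1a1, the gene far lower in CD36KO; Cyp1b1, the relative that was higher; Tiparp, a target above the expression filter at each of its probe sets; and Ahrr, whose window holds the motif most often. Capitals mark GCGTG, or CACGC where the motif lies on the opposite strand. Each run is 250 bases long and ends at the base before the start.
Cyp1a1 (chr9:57697363-57697612, + strand): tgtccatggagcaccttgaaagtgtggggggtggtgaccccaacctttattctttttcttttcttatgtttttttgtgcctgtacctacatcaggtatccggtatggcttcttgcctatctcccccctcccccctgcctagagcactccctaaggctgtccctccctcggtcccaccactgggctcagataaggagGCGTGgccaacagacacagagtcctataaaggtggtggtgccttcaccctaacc
Cyp1b1 (chr17:79715062-79715311, - strand): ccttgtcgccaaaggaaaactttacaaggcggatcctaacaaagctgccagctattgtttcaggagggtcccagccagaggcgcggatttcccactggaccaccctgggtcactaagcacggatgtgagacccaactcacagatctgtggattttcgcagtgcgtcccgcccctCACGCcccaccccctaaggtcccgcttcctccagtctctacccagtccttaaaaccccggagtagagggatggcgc
Tiparp (chr3:65528197-65528446, + strand): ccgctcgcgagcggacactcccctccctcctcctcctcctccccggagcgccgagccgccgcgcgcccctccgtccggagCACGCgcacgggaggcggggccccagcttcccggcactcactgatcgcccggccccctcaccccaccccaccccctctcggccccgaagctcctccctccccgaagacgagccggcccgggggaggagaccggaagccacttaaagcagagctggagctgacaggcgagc
Ahrr (chr13:74292332-74292581, - strand): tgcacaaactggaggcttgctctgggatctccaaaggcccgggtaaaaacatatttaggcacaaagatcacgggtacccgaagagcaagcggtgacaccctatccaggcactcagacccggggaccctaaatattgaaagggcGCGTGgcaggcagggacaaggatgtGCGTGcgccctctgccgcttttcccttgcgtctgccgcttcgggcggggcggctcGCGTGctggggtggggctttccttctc

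GCGTG occurred once in the Cyp1a1 window, with its first base at -54 counted from the start. The match in Cyp1b1 began at -76 and that in Tiparp at -170, each on the opposite strand. Ahrr held 3 matches, which began at -107, -82 and -27, and Arnt held 1 at -29, while the Cyp1a2 window held 0. Of all 32851 windows of this length, 28.2% held GCGTG on either strand, so its presence in 5 of the 6 matched genes is a description of these letters and not of binding. The longer form TNGCGTG, which contains the core, was found in Ahrr alone among the 6 windows and in 4.10% of all windows. No other motif was searched. The Cyp1a1 and Cyp1a2 windows lie on opposite strands of chromosome 9, a head-to-head pair, and the known enhancer of Cyp1a1 lies further upstream than the window reaches.

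Cyp1a1 encodes a cytochrome P450 of the epithelium that clears the ligands of the receptor. Its single probe set, 1422217_a_at, read 5.63 in the CD36KO pool and 9.33 in the WT pool (deposited log2 values). The difference of -3.70, or 13.0-fold lower in CD36KO, was the lowest of all 22551 probe sets above the expression filter. That filter kept a probe set where the higher of its values reached 4.51, the median of these higher values across the table. The CD36KO value was itself above the filter, so the fold does not rest on a value lost at the bottom of the scale. No second probe set for Cyp1a1 was available to set beside it.

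None of the other 7 member probe sets above the filter was at least 1.5-fold lower in CD36KO. Among all 8 member probe sets above the filter, 1 was at least 1.5-fold lower, that of Cyp1a1, beside 4.06% of all probe sets above the filter, and 1 was at least 1.5-fold higher, that of Cyp1b1, beside 6.55%. At 2-fold the counts were 1 lower, beside 0.718%, and 0 higher, beside 1.89%. The other 6 lay within 1.5-fold, as did 89.4% of all probe sets above the filter. All 6, which belong to Ahr, Arnt and Tiparp alone, had differences below 0, between -0.42 and -0.09. Probe sets of 1 gene are not independent readings. The 8, which include the Cyp1a1 probe set by which the members were chosen, had a median of -0.20. That of all probe sets above the filter was -0.0021. All 8 were above the filter in both pools, and the 9 others were under it in both. Over all 17, Cyp1a1 again included, the median was -0.12, with 11 differences below 0 and 6 above.

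**Figure D1:**
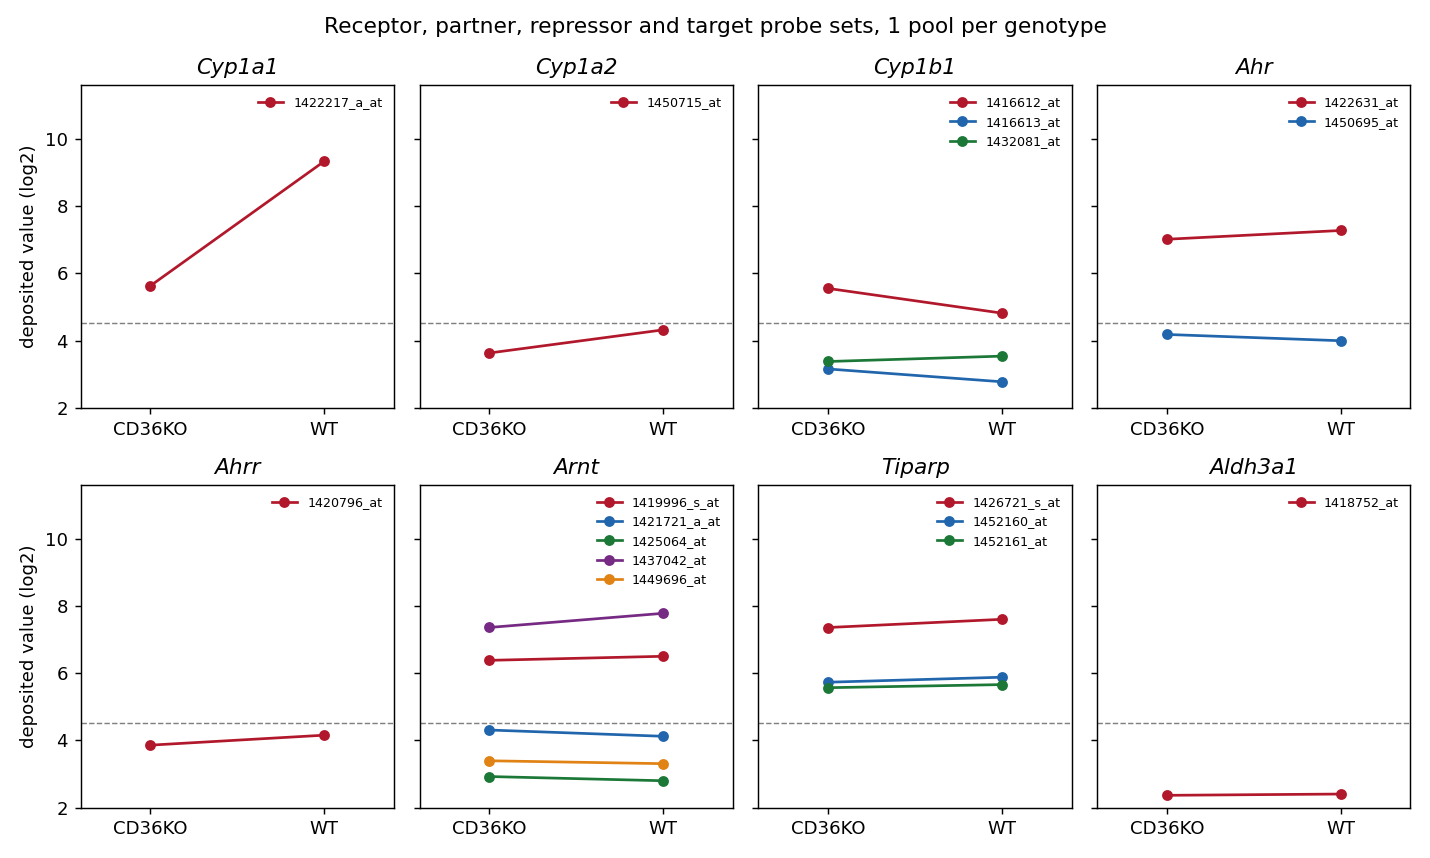
Deposited log2 value (vertical axis) of each of the 17 probe sets in the CD36KO pool (left) and the WT pool (right), 1 panel per gene and 1 line per probe set, with the filter of 4.51 dashed. The line of Cyp1a1 joins 5.63 in CD36KO with 9.33 in WT, and every other line is close to level by comparison.

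The other cytochromes of family 1 were compared with Cyp1a1 by direction, since no other gene above the filter was as low. Cyp1a2, the liver enzyme that metabolizes caffeine and lies beside Cyp1a1, read 3.63 in CD36KO and 4.32 in WT, both under the filter. Its difference of -0.69 had the sign of Cyp1a1, but the signal cannot be told from background and no fold is given.

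Cyp1b1, the family member that is prominent in stromal and vascular cells, differed in the opposite direction. At 1416612_at it read 5.55 in CD36KO and 4.82 in WT, a 1.67-fold higher value, and both pools were above the filter. At 1416613_at, designed from the same source sequence, it read 3.16 in CD36KO and 2.78 in WT, under the filter with the same sign (0.38). The third probe set, 1432081_at, read 3.38 in CD36KO and 3.54 in WT, also under the filter and of opposite sign (-0.16). The higher reading of Cyp1b1 thus rests on 1 probe set of 3 above the filter.

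Most fibroblast markers were higher in CD36KO as well. Of the 8 listed, 5 were at least 1.5-fold higher and 0 lower, beside 5.31% and 3.31% of all genes above the filter. The largest differences were those of the matrix genes Lum (1.52), Col1a1 (1.37, with 0.06 at its other probe set), Dcn (1.26, with -0.08) and Col3a1 (1.16, with 1.26). Those not past 1.5-fold at the probe set used, named after their values were seen, were Pdgfra (0.51), Thy1 (0.29) and Pdgfrb (-0.18). Other probe sets read -0.43 and 0.69 for Pdgfra and 0.51 for Pdgfrb. The list had a median difference of 1.15, larger than the 0.74 of Cyp1b1, and a summed level of 12.15 in CD36KO and 11.12 in WT (log2). The part of stromal content in the Cyp1b1 difference was not tested.

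Tiparp, the ADP-ribosyltransferase that modifies and restrains the receptor, was the one target other than Cyp1a1 with every probe set above the filter. At 1426721_s_at it read 7.35 in CD36KO and 7.60 in WT. At 1452160_at the values were 5.73 in CD36KO and 5.88 in WT, and at 1452161_at they were 5.57 in CD36KO and 5.66 in WT. All 3 differences were below 0 (-0.24, -0.15 and -0.09). They amount to at most 1.18-fold, and 20.7% of all probe sets above the filter had a difference as low as the lowest of them. These 3 probe sets were designed from 1 source sequence and are not independent readings.

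Ahrr, the repressor that competes for ARNT, read 3.86 in CD36KO and 4.15 in WT, a difference of -0.30 with both pools under the filter. Aldh3a1, an aldehyde dehydrogenase that the receptor induces in liver and that is abundant in cornea and stomach, read 2.37 in CD36KO and 2.40 in WT, far under the filter. A difference in Ahrr, Aldh3a1 or Cyp1a2 was not detectable at this signal. Over the 5 targets other than Cyp1a1, 7 of 9 probe sets had a difference below 0. The median of all probe sets above the filter was itself near 0 (-0.0021). Of the 4 of these 9 above the filter, 3 belong to Tiparp, from 1 source sequence, and 1 to Cyp1b1, which was higher. The other differences below 0 came from probe sets under the filter in both pools, so the sign count is not a count of targets that followed Cyp1a1.

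The receptor and its partner were present in both pools. Ahr read 7.01 in CD36KO and 7.27 in WT at 1422631_at, a difference of -0.26 (1.20-fold lower). Its second probe set, 1450695_at, designed from the same source sequence, read 4.18 in CD36KO and 3.997 in WT, under the filter and of opposite sign (0.19).

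Arnt, which also pairs with the hypoxia-inducible factors, had 5 probe sets. At 1437042_at it read 7.36 in CD36KO and 7.78 in WT, 1.34-fold lower. At 1419996_s_at it read 6.38 in CD36KO and 6.50 in WT, 1.09-fold lower. The remaining 3 were under the filter in both pools and had differences between 0.09 and 0.19. For Ahr and Arnt alike, the probe sets above the filter were lower in CD36KO by less than 1.5-fold and those under it slightly higher, and 9.05% of all probe sets above the filter had a difference as low as that of 1437042_at.

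**Figure D2:**
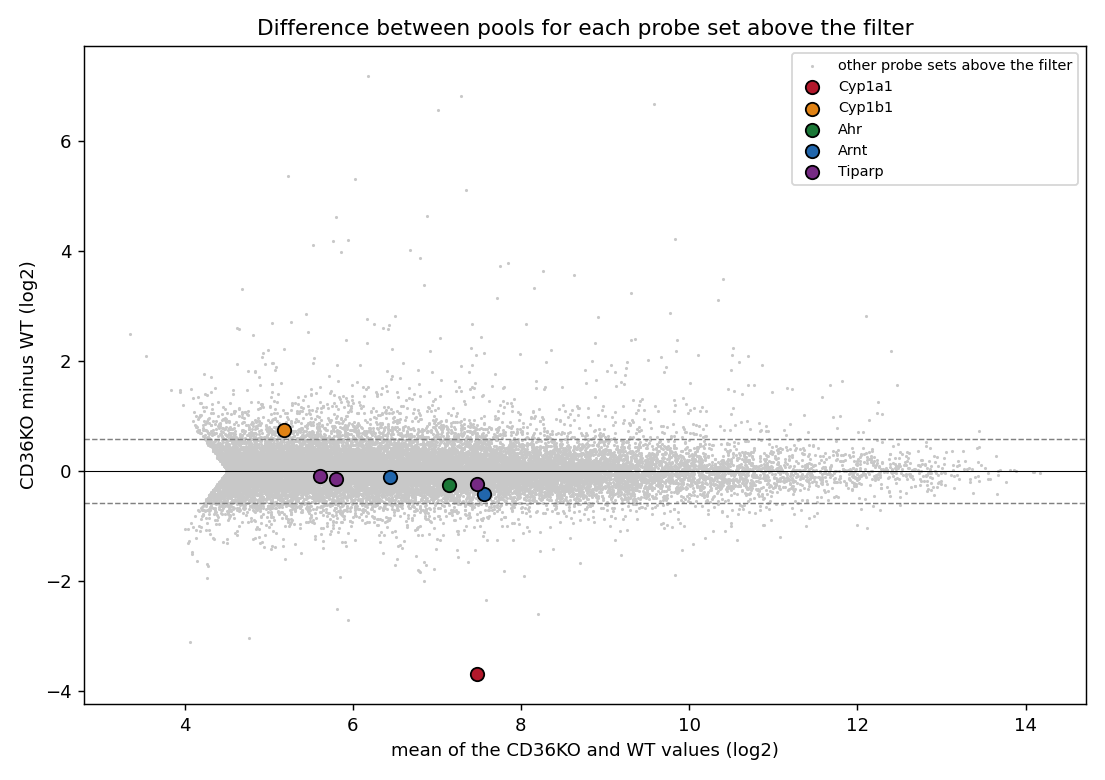
CD36KO minus WT difference (log2, vertical axis) against the mean of both pools (log2, horizontal axis) for the 22551 probe sets above the filter in grey, with the 8 member probe sets above the filter in colour and 1.5-fold dashed. Cyp1a1 at -3.70 lies below every other probe set, Cyp1b1 lies above the upper line, and the 6 points of Ahr, Arnt and Tiparp lie within the grey band.

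Further targets described for the receptor, mostly in rodent liver and immune cells, were split. Of 20 listed, 14 were measured and 12 were above the filter. Of these, 2 were at least 1.5-fold lower in CD36KO and 2 at least 1.5-fold higher, beside 3.31% and 5.31% of all genes above the filter. The median difference was -0.33, against -0.0059 for all genes above the filter, but -0.13 with each gene's probe sets averaged and -0.14 with the probe set of smallest difference. The glutathione transferase Gsta2 read 4.55 in CD36KO and 7.07 in WT, 5.74-fold lower, with the CD36KO value close to the filter. The quinone reductase Nqo1, which answers to the oxidant sensor NRF2 as well, read 7.22 in CD36KO and 7.83 in WT, 1.52-fold lower.

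In the other direction, Ido1, which opens the tryptophan ring on the way to kynurenine, read 8.93 in CD36KO and 8.32 in WT, 1.53-fold higher. Socs2, a brake on cytokine signalling, was 1.59-fold higher at its brightest probe set, while its other 5 probe sets differed by between -0.38 and 0.18. Cyp2s1, an epithelial cytochrome that dioxin induces, read 8.32 in CD36KO and 8.65 in WT, within 1.5-fold. The xanthine dehydrogenase gene Xdh, named after its values were seen, read 10.50 in CD36KO and 10.92 in WT, also within 1.5-fold. At 2-fold, 1 of the 12 was lower (Gsta2) and 0 higher, beside 0.626% and 1.61% of all genes above the filter.

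Transcripts of proteins that hold, degrade or serve the receptor were mostly within 1.5-fold. None of the 4 measured chaperone and turnover genes passed 1.5-fold in either direction at the probe set used. Hsp90aa1, the HSP90 chaperone that holds the unbound receptor, read 10.47 in CD36KO and 10.45 in WT, although 1 of its other 4 probe sets read 9.09 in CD36KO and 8.17 in WT (0.93). The 7 coregulators were within 1.5-fold at the probe set used for each, beside the same shares over all genes. Their median was -0.14, or -0.02 where each gene is read at its least different probe set. Another probe set of Nrip1, a nuclear receptor corepressor, read 6.28 in CD36KO and 7.70 in WT (-1.42), while the remaining 4 differed by between -0.17 and 0.43.

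Of 6 bHLH-PAS relatives above the filter, 1 was at least 1.5-fold lower and 0 higher, beside 3.31% and 5.31% of all genes above the filter. The lower one was Npas2 (1.56-fold, with -0.32 at its other probe set), and 5 were within 1.5-fold. Hif1a, the oxygen-regulated partner of ARNT, read 9.11 in CD36KO and 9.41 in WT, with its other probe sets between -0.44 and 0.23. Targets of the ARNT dimers formed under low oxygen had a median of 0.09. Beside 5.31% and 3.31% of all genes above the filter, 2 of 12 were at least 1.5-fold higher and 0 lower. These were the hexokinase Hk2 (1.99-fold) and the prolyl hydroxylase Egln3 (1.70-fold, with 0.26 at its other probe set). Adm, named after its values were seen, was within 1.5-fold but differed by 1.21 at its other probe set, under the filter in WT. Of the 12, 6 had differences below 0 and 6 above.

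Tryptophan and kynurenine enzymes had a median of -0.05. Of 8 above the filter, 1 was at least 1.5-fold lower and 1 higher, beside 3.31% and 5.31% of all genes above it. The lower gene was Ddc, the aromatic amino acid decarboxylase, which read 10.53 in CD36KO and 11.42 in WT (1.86-fold lower, with -0.10 at its other probe set), and the higher one was Ido1. Tdo2, the liver enzyme for the first step, was under the filter in both pools.

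Targets and sensors of other xenobiotic receptors, the pregnane X and constitutive androstane receptors, were on the low side in CD36KO. All 10 measured had differences below 0, 5 were at least 1.5-fold lower and 0 higher, beside 3.31% and 5.31% of all genes above the filter, and the median was -0.66. The exporter Abcc2 was 2.72-fold lower, Cyp2c29 2.14-fold, Cyp2b10 1.99-fold (with -1.33 and -1.21 at its other probe sets), the constitutive androstane receptor Nr1i3 1.86-fold and Cyp3a25 1.76-fold. The lowest of these differences was -1.44, beside the -3.70 of Cyp1a1, which was the lowest of all genes above the filter. Near-identical cytochrome and transferase genes may share signal on the array.

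Cyp1a1 was also set beside the markers of place along the gut, in lists chosen with earlier results of these data known. Of 14 proximal segment genes, 8 were at least 1.5-fold lower in CD36KO and 0 higher, beside 3.31% and 5.31% of all genes above the filter. Their median was -0.70, and their summed level was 14.60 in CD36KO and 15.11 in WT (log2). The lowest was Pdx1, the duodenal transcription factor, at -1.26 (-0.00042 at its other probe set), followed by the calcium channel Trpv6 at -1.16 and the iron exporter Slc40a1 at -1.10. Of 12 distal segment genes, 12 were at least 1.5-fold higher, beside 5.31% of all genes above the filter. Their median was 2.08 and their summed level 14.48 in CD36KO and 12.50 in WT. The largest difference was that of Fabp6 at 6.67. The smallest was that of Clec2h at 0.77, with -0.06 and 1.09 at its other probe sets. Fgf15 and Slc10a2 were under the filter in WT and passed it through CD36KO alone. The other 10 were above it in both pools and had a median of 1.81. The part of segment position in the Cyp1a1 difference was not tested. Pancreas genes were higher as well, 9 of 9 by at least 1.5-fold beside 5.31% of all genes above the filter, with a median of 1.81.

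Epithelial markers differed in both directions. Of 11 measured, 4 had differences below 0, the lowest being Alpi, the intestinal alkaline phosphatase (-0.37). None was at least 1.5-fold lower, and 1, Krt19, was 1.63-fold higher, beside 3.31% and 5.31% of all genes past 1.5-fold above the filter. Their median was 0.12, their summed level was 16.14 in CD36KO and 16.06 in WT, and no member read under 10.27 in either pool. The part of epithelial content in the Cyp1a1 difference was not tested. Markers of mucosal lymphocytes, which also use the receptor, had a median of -0.12. Of 9 above the filter, 1 was at least 1.5-fold lower and 1 higher, beside 3.31% and 5.31% of all genes above it. These were Klrd1 (1.85-fold lower) and Kit (1.75-fold higher, with -0.0064 at its other probe set). The summed level of the lymphocyte list was 11.53 in CD36KO and 11.64 in WT.

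**Figure D3:**
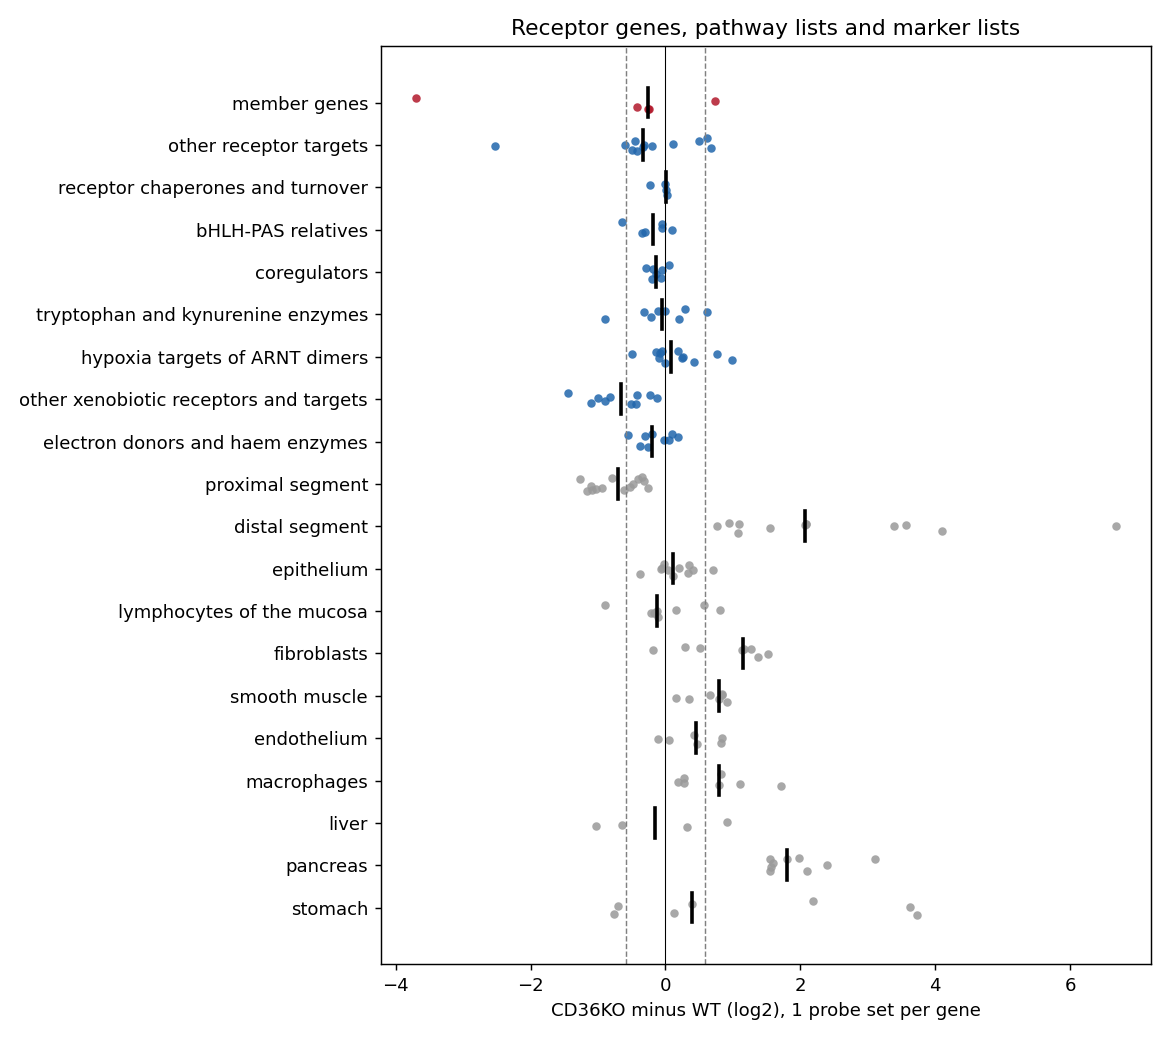
CD36KO minus WT difference (log2, horizontal axis) of each gene above the filter, 1 probe set per gene, for the member genes (red), 8 pathway lists (blue) and 11 marker lists (grey). Black bars are medians and dashed lines 1.5-fold. Cyp1a1 stands alone at -3.70, with Gsta2 at -2.52 the next lowest point, while the proximal segment and xenobiotic receptor lists lie to the left and the distal segment, pancreas and fibroblast lists to the right.

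Cyp1a1 had the lowest difference of all genes above the filter. The 5 genes with the difference nearest to it, a likeness over only 2 arrays, were therefore the 5 next lowest. These were Gsta2 (-2.52), Mid1, a ubiquitin ligase (-2.35, with -0.06 and 0.03 at its other probe sets), Rab30, a small GTPase (-1.91, with -0.51 at the other), Hsd17b13, a lipid droplet dehydrogenase (-1.85, with -0.32 at the other), and the carboxylesterase Ces2g (-1.82). The gap between Cyp1a1 and Gsta2 was 1.18.

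Some facts of the arrays touch these readings. Cd36 was lower in CD36KO at each of its 3 probe sets, where it read 5.87, 6.02 and 3.52 in CD36KO against 7.70, 7.68 and 4.74 in WT, and where the probe sets lie relative to the deletion is not stated in the labels. Signal at the 3' end of beta-actin exceeded that at the 5' end by 1.34 in CD36KO and 2.28 in WT (log2), so the RNA differed in coverage between the pools, and its part in the disagreement between probe sets of Arnt, Ahr and Cyp1b1 was not tested. The deposited table gives no detection call, so values under the filter cannot be told from no signal.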

How the data were processed

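The measurement was messenger RNA on 2 Affymetrix arrays, 1 per genotype. Per the labels' protocols, total RNA of 3 animals was pooled and biotinylated cRNA was made from 100 ng. The authors deposited 1 table of log2 values for 45101 probe sets. The log2 scale follows from the values (1.79 to 14.2), while how they were summarized, normalized and background-corrected is not given in the sources used. Column medians were 4.38 in CD36KO and 4.38 in WT.

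Probe sets were named from the platform annotation, and 34958 carried 1 symbol. List members absent under their own symbol were sought by synonym in RefSeq's GRCm38.p6 gene table. The CD36KO minus WT difference was taken per probe set, and for lists per gene at the probe set with the highest mean (18194 genes, 11981 above the filter). A summed level is the log2 of the summed unlogged values of all measured members of a list.

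No test was possible with a single array per genotype. The members and lists were chosen with earlier results of these data known. Named were all members, list members past 1.5-fold (for marker lists at most 4), some fixed pathway genes, and the 5 genes nearest to Cyp1a1 in difference. Alternatives were centring, quantile normalization, subtraction of a lowess curve (fraction 0.3), other filters, a 2-fold threshold, and other ways to join probe sets. The procedure was tested on simulated data. The work used pandas 2.3.3 and statsmodels 0.14.6 under Python 3.11.15, with NumPy 2.4.6 and matplotlib 3.10.9.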

Additional observations from a re-analysis of the deposited data

How the results depend on the processing

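The Cyp1a1 difference stayed between -3.73 and -3.69 under the 3 scalings (centring, quantile normalization, lowess trend removed), and all 17 member probe sets kept their sign, moving by at most 0.04. The count of members at least 1.5-fold lower was 2 with no filter, which adds Cyp1a2, and 1 under the other alternatives. The count at least 1.5-fold higher, Cyp1b1, was 0 with the 75th percentile filter, at 2-fold, with the mean over probe sets and with the probe set of smallest difference. The median of the further receptor targets was -0.13 with the mean over probe sets and -0.14 with the smallest difference. Their count higher was 1 under both, and at 2-fold the counts were 1 lower and 0 higher. Of 184 values computed for the pathway lists under alternatives, 161 moved by less than 0.1 (medians) or 1.5 times (counts). Many of the 161 were counts of 0 that stayed at 0, and centring shifted every difference by only -0.0039. No paired analysis was possible because each genotype has 1 array, and no replicate could be left out for the same reason. The missing detection calls limit Cyp1a2, Ahrr and Aldh3a1.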

Other observations

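Cyp1a1 had the lowest difference of all genes above the filter, so its neighbours were set beside all such genes instead. Of the 12 nearest protein-coding neighbours of Cyp1a1 on chromosome 9, 6 on each side, 8 were above the filter. Among these 8, 1 was at least 1.5-fold lower in CD36KO, Sema7a, a membrane semaphorin (1.64-fold), and 0 higher. Over all genes above the filter the shares were 3.31% and 5.31%. The adjacent Edc3, which works in mRNA decapping, read 6.61 in CD36KO and 7.08 in WT, and Csk, a kinase that restrains Src, read 7.74 in CD36KO and 7.30 in WT. The neighbours above the filter ranged from -0.72 to 0.44. Around Cyp1b1 on chromosome 17, 7 neighbours were above the filter and 0 passed 1.5-fold in either direction, beside the same 3.31% and 5.31%. Gene order is from the GRCm38.p6 RefSeq table.

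Cytochromes need haem and electrons, and the genes that supply them were mostly within 1.5-fold. Of 9 electron donor and haem synthesis genes above the filter, 0 passed 1.5-fold at the probe set used, and the median was -0.20, or -0.02 where each gene is read at its least different probe set. Other probe sets did pass it for Cpox, at 6.18 in CD36KO and 6.89 in WT, and for Fech, at 5.80 in CD36KO and 5.21 in WT. The cytochrome b5 reductase Cyb5r3 was lowest at -0.56, with its other probe sets between -0.18 and 0.36.

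Markers of liver, the main site of Cyp1a2, were mostly under the filter. Of 9 measured, 4 were above it. Of these, 2 were at least 1.5-fold lower in CD36KO and 1 higher, beside 3.31% and 5.31% of all genes above the filter. Alb, albumin, read 3.90 in CD36KO, under the filter, and 4.54 in WT, and Ttr, transthyretin, read 6.27 in CD36KO and 7.29 in WT. The other pair went the opposite way, Cyp2e1 at 5.72 in CD36KO and 4.82 in WT and Apoh at 5.53 in CD36KO and 5.20 in WT. The stomach list is named here because Aldh3a1 is abundant in stomach. It had 3 genes higher and 2 lower among 7 above the filter, with a median of 0.39. The higher genes had large differences: Gkn1 3.73 (4.64 at its other probe set), Gkn2 3.63 and Tff1 2.19. Of the 2 lower genes, Gkn3 had the lower difference, -0.76 (-1.25 at its other probe set). The summed level of the stomach list, 13.07 in CD36KO and 13.01 in WT, does not show these opposite differences. Smooth muscle (median 0.80), macrophage (0.80) and endothelial (0.45) lists had 5 of 7, 4 of 7 and 2 of 6 members higher and 0 lower. Over all genes above the filter the shares were 5.31% and 3.31%. Both endothelial genes counted, Pecam1 and Emcn, and Cd68 of the macrophage list passed the filter through CD36KO alone. Among genes above it in both pools, the counts higher were 0 of 4 endothelial and 3 of 5 macrophage genes.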
